A study of Homo sapiens with 24 samples.

Results

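The urea cycle of hepatocyte-like HepaRG cells was followed through 7 genes, CPS1, OTC, ASS1, ASL, ARG1, ARG2 and GLUL, at 8 times after replating. The genes were chosen by name, as the enzymes of the cycle, the other arginase and glutamine synthetase, and all probe sets annotated to 1 of these symbols alone were taken. That gave 11 probe sets of the 22215 on the array that are not controls: 2 for CPS1, 2 for ARG2, 3 for GLUL and 1 for each other gene. All 11 passed the filter on low signals that left 17122 probe sets for testing. HepaRG is an established human liver line whose progenitors can become hepatocytes or cells of the bile duct kind. All groups shared 1 culture history, namely 2 weeks in medium with serum, insulin and hydrocortisone, then 2 weeks with 2% DMSO, after which hepatocyte-like cells were lifted with mild trypsin and seeded sparsely. RNA was taken at 0 h, at 1, 4 and 8 h, at 12 and 16 h, and at 24 and 48 h, with 3 arrays at each time (24 in all). The 0 h arrays served as the control. The labels do not say whether DMSO stayed in the medium after seeding, nor whether the replicates were separate cultures, so p-values measure only the spread between these arrays, which may be technical.

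Hepatocytes turn toxic ammonia into urea in a 5-enzyme cycle that spans mitochondrion and cytosol. CPS1 joins ammonia and bicarbonate to carbamoyl phosphate in the mitochondrion, OTC joins it to ornithine, and in the cytosol ASS1 and ASL build and split argininosuccinate before ARG1 releases urea and returns ornithine. ARG2 is the mitochondrial arginase, found mainly outside hepatocytes. GLUL, glutamine synthetase, takes up ammonia that the cycle leaves and in liver tissue marks the hepatocytes around the central vein, whereas the cycle enzymes are strongest around the portal vein.

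The labelled cell type was borne out by its markers: at 0 h all 8 measured hepatocyte markers of 9 listed lay at or above the 99.4th percentile of their array, ALB at a signal of 69400 ± 9270 (SD, n = 3). Their summed signal was 412000 to 441000 at 0 h and 132000 to 148000 at 48 h. That of 6 biliary markers went from 4680 to 5140 up to 16100 to 20500, mostly through KRT19 (3360 ± 221 to 16100 ± 2200); SPP1 and KRT7 had higher means at 48 h, SOX9 a lower one (517 ± 111 and 379 ± 43.3), and CFTR and EPCAM stayed dim. The sum of 5 stellate or fibroblast markers went from 1550 to 1950 up to 3300 to 4210, through ACTA2 and DCN, while the means of COL1A1 and PDGFRB were lower at 48 h and LRAT stayed dim. Sums of markers of other cells were lower at 48 h than at 0 h: 4 endothelial markers went from 313 to 498 down to 81.4 to 161, 4 measured macrophage markers of 5 from 481 to 690 down to 233 to 325, and 4 blood cell markers from 219 to 297 down to 87.5 to 180. At 0 h the blood markers HBB and MPO were at 139 ± 19.9 and 87.9 ± 18.1, and ELANE and ALAS2 at 22.8 ± 2.85 and 11.5 ± 4.67. All these values moved with the results below, and their part in them was not tested. In such bulk RNA fewer hepatocyte-like cells and less RNA per cell cannot be told apart. The 3'/5' ratio of the ACTB control probe sets, higher for degraded RNA, was 2.03 to 6.91 at 0 h and 1.02 to 1.27 at 48 h. Its part in the changes was not tested either. Without 0 h replicate 2, the array at 6.91, the member totals below were as given except at 16 and 24 h. Those were 6 in place of 5 at 16 h and 9 in place of 8 at 24 h. At 8 h the total held, but ARG1 was then called lower (-1.09) and ARG2 203946_s_at was no longer called higher (0.96).

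By 48 h CPS1, OTC and ARG1 had fallen to between 1.1% and 5.73% of their mean signal at 0 h, ASL to 37.1% and ASS1 to 49.1%, while ARG2 was not called changed. GLUL was near its 0 h level at 8 h and at 47.6% at 24 h by its brightest probe set. Signals were compared as log2(signal + 18) with limma, and a probe set was called at a Benjamini-Hochberg adjusted p under 0.05 and a difference of at least 2-fold. By limma's moderated F-test over the 7 later times, with a 2-fold difference at some time, 9 of the 11 member probe sets were called, against 34.4% of all probe sets tested. The exceptions were 203945_at for ARG2 (adjusted p = 0.64) and 217202_s_at for GLUL, which passed the F-test (adjusted p = 5.8e-09) but not the 2-fold limit. With median centring the count was 6 in place of 9.

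**Figure D1:**
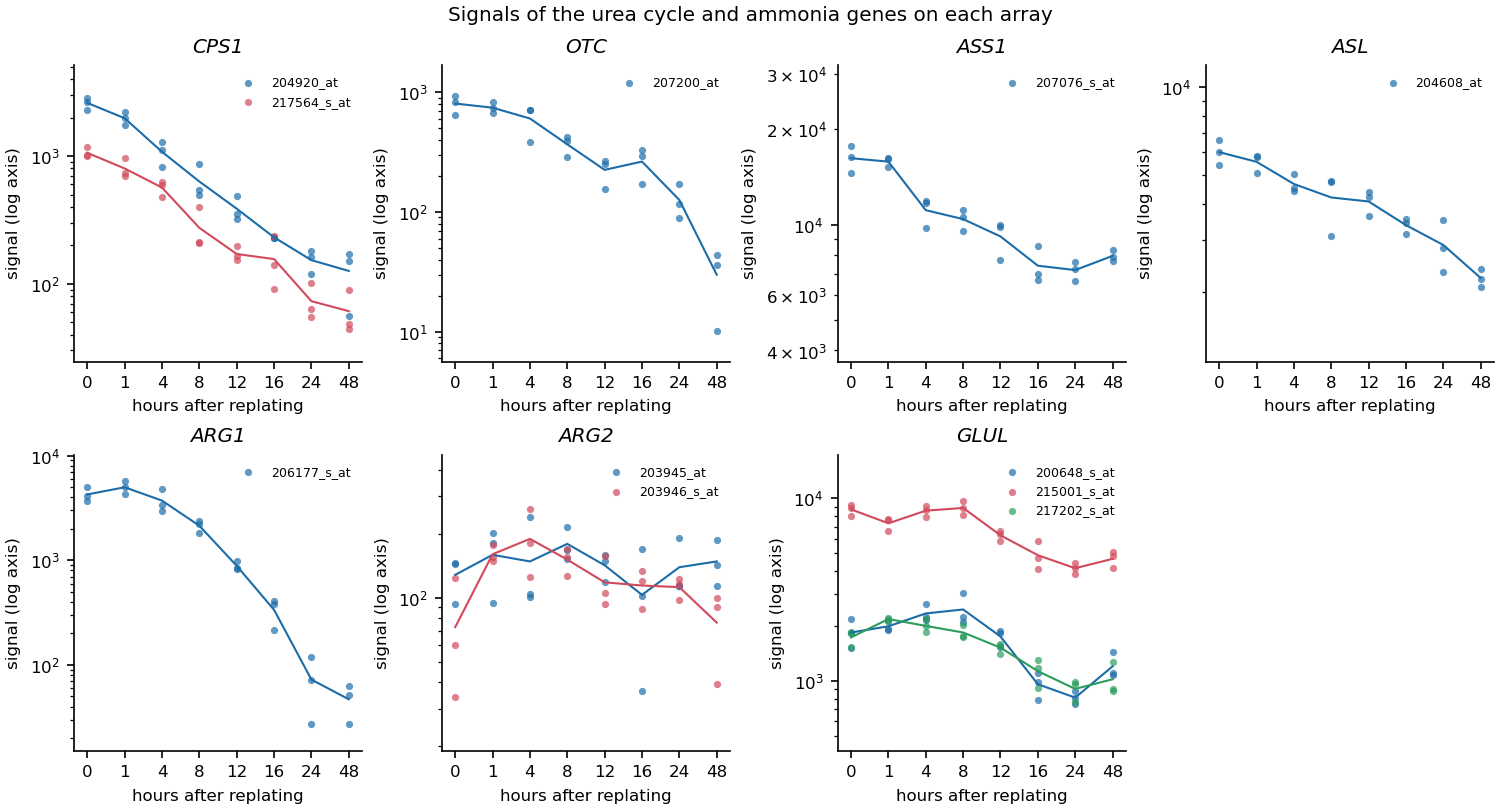
Signal of every member probe set on each of the 24 arrays (points, log axis) with the mean of 3 arrays (line), against the time after replating with the 8 times evenly spaced. CPS1, OTC and ARG1 end far below their 0 h arrays, ASS1, ASL and GLUL stay within about the same decade, and the ARG2 probe sets lie low throughout.

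At 1 h no member was called (limma, 0 of 11; 2 at an unadjusted p under 0.05), against 2.53% of all probe sets. At 4 h 1 probe set was lower (6.38% of all probe sets) and 1 higher (7.13%), and at 8 h 3 were lower (9.31%) and 1 higher (8.02%). From 12 h on all member calls were falls. There were 4 at 12 h (9.48% of all lower, 8.46% higher), 5 at 16 h (11.1% and 8.52%), 8 at 24 h (10.8% and 9.26%) and 6 at 48 h (11.0% and 9.23%). Over all probe sets, the 3 arrays of a later time did not overlap those of 0 h for 19.7% of them at 1 h. This share was 38.2% (4 h), 42.0% (8 h), 43.9% (12 h), 44.6% (16 h), 43.2% (24 h) and 46.6% (48 h), against which the statements on overlap below are to be read. In the step from 1 to 4 h no member was called (limma; 2 at an unadjusted p under 0.05; 9.77% of all probe sets called). The median log2 change of the 11 probe sets was -0.03 (1 h), -0.53 (8 h), -1.16 (24 h) and -1.02 (48 h), where the median over all probe sets tested was -0.07, -0.13, -0.11 and -0.12. Quantile normalization brought the latter to 0.02 at 48 h and median centring to 0.14, so falls of about 2-fold depended on scaling, as given beside them.

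CPS1 commits ammonia to the cycle, and it was the first member called lower. By probe set 204920_at its signals were 2290, 2860 and 2670 at 0 h, 1740, 2000 and 2220 at 1 h, and 825, 1110 and 1300 at 4 h. They were 864, 493 and 540 at 8 h, 319, 490 and 352 at 12 h, and 230, 233 and 229 at 16 h. They were, at 24 h, 161, 180 and 119, and at 48 h 55.4, 152 and 170. No array of any later time overlapped those of 0 h, although at 1 h the change was not called (log2 change -0.39 ± 0.26, SE; adjusted p = 0.51). The fall was called at 4 h (-1.28 ± 0.26, adjusted p = 0.00026) and grew to -4.30 ± 0.26 at 48 h (adjusted p = 3.2e-15), where the mean signal was 20.7-fold lower than at 0 h. The other CPS1 probe set, 217564_s_at, went from 1180, 1020 and 995 at 0 h to 590, 482 and 630 at 4 h and 44.2, 48.8 and 89.9 at 48 h. Its change at 4 h of -0.89 ± 0.29 was under the 2-fold limit, and it was called from 8 h on, reaching -3.82 ± 0.29 at 48 h. Of the 6 steps between neighbouring times after 1 h, only 4 to 8 h was called for CPS1, by 217564_s_at (-1.06 ± 0.29, adjusted p = 0.019; 1.56% of all probe sets called lower). That call was lost without any of 4 h replicates 1 and 3 and 8 h replicates 1 and 3 (adjusted p between 0.058 and 0.094) and with a larger pseudocount of 73.8 (-0.92), while 204920_at was called in that step only without 8 h replicate 1 (-1.01).

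OTC makes citrulline in the mitochondrion. Its signals (207200_at) were 937, 646 and 836 at 0 h, 734, 674 and 827 at 1 h, and 383, 716 and 716 at 4 h. They were 394, 288 and 422 at 8 h, 265, 157 and 252 at 12 h, and 330, 170 and 292 at 16 h. By 24 h they stood at 116, 89.5 and 172, and at 48 h 10.1, 36 and 43.6. The groups at 1 and 4 h overlapped that of 0 h, and those from 8 h on did not. OTC was called lower at 8 h (-1.10 ± 0.30, adjusted p = 0.005), a call just past the 2-fold limit that was lost with median centring (-0.92), that pseudocount (-0.99), or leaving out 0 h replicate 1 (-0.98) or 8 h replicate 2 (-0.94). It was called at every later time, at -2.54 ± 0.30 at 24 h and -4.17 ± 0.30 at 48 h (adjusted p = 4.5e-13). The means at 12 and 16 h, 225 ± 58.7 and 264 ± 83.5 (SD, n = 3), differed by less than the spread between arrays. OTC was the only member called in the step from 24 to 48 h (-1.62 ± 0.30, adjusted p = 0.00076; 0.876% of all probe sets called lower), a call lost with the larger pseudocount (-0.94) and when only these 2 groups entered the fit (adjusted p = 0.084). At 48 h its signals lay between the 15.1st and 31.6th percentile of their arrays, where the fold is poorly measured.

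ARG1, the last enzyme of the cycle, overlapped its 0 h level through 4 h and then fell steeply. Its signals (206177_s_at) were 4130, 3660 and 4980 at 0 h, 4290, 4980 and 5700 at 1 h, and 2970, 3360 and 4830 at 4 h. They were 1810, 2230 and 2380 at 8 h, 830, 843 and 981 at 12 h, and 216, 384 and 409 at 16 h. The 24 h arrays gave 27.5, 118 and 71.5, and at 48 h 51.2, 62.4 and 27.2. Through 4 h the arrays overlapped those of 0 h, and from 8 h on each group lay below every 0 h array. The log2 change was 0.23 ± 0.27 at 1 h and -0.21 ± 0.27 at 4 h, neither called. At 8 h it was -0.99 ± 0.27 (adjusted p = 0.0044), just short of the 2-fold limit, and it was called with quantile normalization (-1.05) and without any 1 of 0 h replicates 1 and 2 and 8 h replicates 2 and 3 (the largest change -1.09). It reached -2.24 ± 0.27 at 12 h, -5.69 ± 0.27 at 24 h and -6.07 ± 0.27 at 48 h (adjusted p = 1.3e-18). Its signals then lay between the 25.5th and 41.2nd percentile of their arrays, where the size of the fall is poorly measured: it was -5.16 with the larger pseudocount and -6.57 with none.

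ARG1 was the only member called in 3 steps running: from 8 to 12 h (-1.25 ± 0.27, adjusted p = 0.016), from 12 to 16 h (-1.40 ± 0.27, adjusted p = 0.0075) and from 16 to 24 h (-2.06 ± 0.27, adjusted p = 7e-06). Few probe sets fell in these steps, 22 (0.128%), 21 (0.123%) and 82 (0.479%) of 17122. The call from 8 to 12 h was lost without any of 8 h replicates 2 and 3 and 12 h replicates 1 and 2 (adjusted p between 0.055 and 0.1) and without a pseudocount (0.072). The call from 12 to 16 h was lost without 12 h replicate 3 (0.074) or 16 h replicate 1 (0.059). Both were lost without the mean-variance trend (0.12 and 0.11), and the call from 16 to 24 h was kept in every alternative run.

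On these arrays the mean time courses of the falls differed. Joined linearly between times, the mean log2 signal first lay 1 below 0 h at 3.06 h for CPS1 (2.75 to 3.58 h when any 1 array was left out), 7.41 h for OTC (6.51 to 8.3) and 8.05 h for ARG1 (7.55 to 8.43). By the other CPS1 probe set, 217564_s_at, that point came at 4.41 h (4.13 to 4.75), against 3.06 h by 204920_at. The ranges of OTC and ARG1 overlap, and those of both CPS1 probe sets lie below them. Such ranges show only how far single arrays move the estimate and are not confidence intervals. Pairs here and below read each gene by its brightest probe set, for CPS1 204920_at. At 4 h the change of ARG1 exceeded that of CPS1 by 1.06 ± 0.20 on the log2 scale (SE) and that of OTC exceeded it by 0.84 ± 0.28. The other CPS1 probe set had changed less at 4 h (-0.89 ± 0.29 against -1.28 ± 0.26), so by it these gaps are smaller. OTC then stood at -0.44 ± 0.30 and ARG1 at -0.21 ± 0.27. At 24 h ARG1 was further down than CPS1 by -1.74 ± 0.50, with ARG1 signals between the 24.9th and 49.3rd percentile of their arrays, while OTC (-2.54) had still changed less than CPS1 (-3.95). For these and 3 further pairs given below, the exact permutation test of within-array differences gave p = 0.1 (two-sided; adjusted over the 6 pairs, 0.1), the smallest that 3 arrays against 3 allow, so none can pass 0.05 and they are given for their size.

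**Figure D2:**
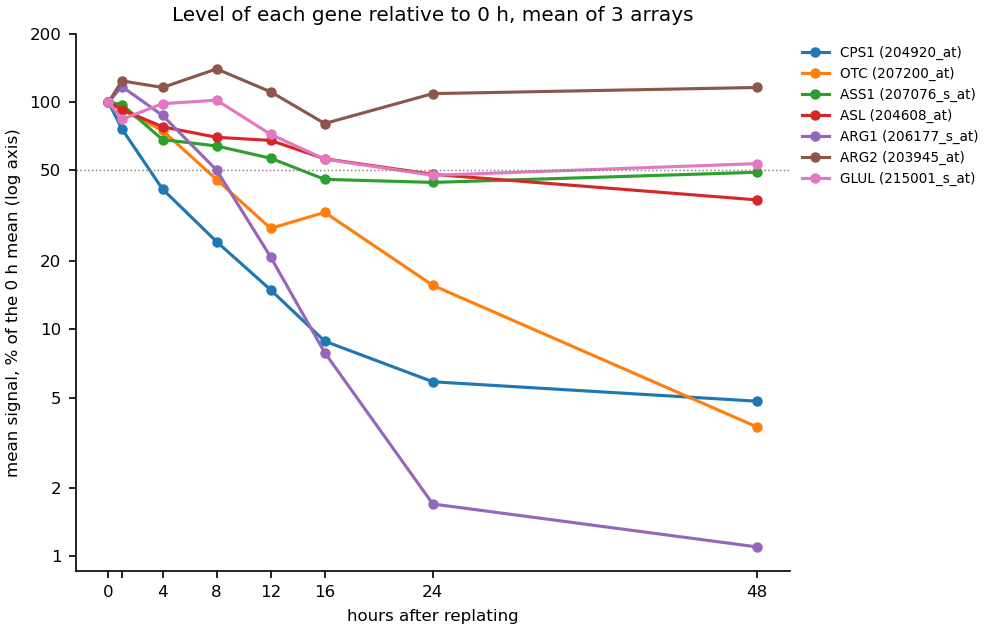
Mean signal of the brightest probe set of each gene at each time, as a percentage of its mean at 0 h (log axis, mean of 3 arrays; dotted line at 50%), against hours after replating. CPS1 leads to 12 h, ARG1 crosses it by 16 h and is lowest at 24 and 48 h (1.7% and 1.1%), and ASS1, ASL and GLUL stay above 35%.

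The cytosolic pair that makes arginine fell far less. ASS1 (207076_s_at), which joins citrulline and aspartate, had signals of 14500, 16400 and 17700 at 0 h, 16200, 16100 and 15200 at 1 h, and 11700, 9730 and 11900 at 4 h. They were 10600, 9530 and 11100 at 8 h, 7730, 9810 and 9970 at 12 h, and 8540, 6690 and 7000 at 16 h. At 24 h they were 6640, 7250 and 7640, and at 48 h 7900, 7650 and 8330. All arrays from 4 h on lay below those of 0 h, and between 24 and 48 h the change was 0.15 ± 0.13 (not called, adjusted p = 0.69). ASS1 passed both limits at 16 h (-1.13 ± 0.13), 24 h (-1.17 ± 0.13) and 48 h (-1.02 ± 0.13, adjusted p = 6.2e-08). With median centring these were -0.86, -0.96 and -0.76 and none was called, and at 48 h the call was also lost with quantile normalization (-0.98) and without 0 h replicate 3 (-0.95) or 48 h replicate 2 (-0.99). ASS1 has many processed pseudogenes, so its probe set may read similar transcripts and its level is uncertain.

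ASL, which releases arginine and fumarate, declined in small moves to the end. Its signals (204608_at) were 5990, 5420 and 6600 at 0 h, 5080, 5790 and 5820 at 1 h, and 4430, 4530 and 5060 at 4 h. They were 3110, 4780 and 4730 at 8 h, 3630, 4370 and 4220 at 12 h, and 3550, 3150 and 3440 at 16 h. They were, at 24 h, 2820, 2330 and 3520, and at 48 h 2210, 2080 and 2390, the lowest of the course. ASL was called at 24 h (-1.07 ± 0.15, adjusted p = 5.5e-07) and 48 h (-1.42 ± 0.15, adjusted p = 2e-09), and no single step was called. The call at 24 h was lost with median centring (-0.85), without 24 h replicate 2 (-0.92) and, just under 2-fold, without 0 h replicate 3. Its mean log2 signal first lay 1 below 0 h at 21.8 h (19.5 to 27.8 with 1 array left out), and that of ASS1 at 14.3 h (13.3 to 15.1). With median centring ASL reached it at 35.4 h and ASS1 did not reach it, so their order depends on the scaling. At 48 h the log2 change of ARG1 lay below that of ASS1 by -5.05 ± 0.31 and that of CPS1 below that of ASL by -2.88 ± 0.45 (SE; 2 of the 6 pairs above).

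No GLUL probe set was called before 24 h, although 200648_s_at was at 16 h without 0 h replicate 2 (-1.06) or 16 h replicate 1 (-1.03), and the arrays of all 3 lay below those of 0 h from 16 h on. By the brightest, 215001_s_at, signals were 8840, 9200 and 8050 at 0 h, 6650, 7670 and 7590 at 1 h, and 7950, 8650 and 9080 at 4 h. They were 9660, 8840 and 8090 at 8 h, 6640, 6340 and 5820 at 12 h, and 4690, 4090 and 5860 at 16 h. By 24 h they stood at 3850, 4140 and 4440, and at 48 h 4810, 4140 and 5050. The arrays of 4 and 8 h overlapped those of 0 h, and those from 12 h on lay below them. At 8 h, when CPS1 was at 24.3% and ARG1 at 50.2% of 0 h, GLUL was at 102% by 215001_s_at, 133% by 200648_s_at and 106% by 217202_s_at. The change of GLUL then exceeded that of ARG1 by 1.01 ± 0.27 (SE; the last of the 6 pairs).

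At 24 h the log2 changes of the 3 GLUL probe sets were -1.07 ± 0.13 (215001_s_at, adjusted p = 2.8e-08), -1.16 ± 0.16 (200648_s_at, adjusted p = 5.3e-07) and -0.93 ± 0.15 (217202_s_at). The first 2 were called, but not with median centring (-0.85 and -0.94), and the third was called with quantile normalization (-1.03) and without 0 h replicate 2 (-1.02). At 48 h none was called, at -0.90 ± 0.13, -0.60 ± 0.16 and -0.77 ± 0.15, though each was past the adjusted p limit. From 24 to 48 h all 3 had positive changes, the largest 0.55 ± 0.16 by 200648_s_at (adjusted p = 0.052), which were not called. At 1 h the probe sets disagreed in sign, with all arrays of 215001_s_at below 0 h (-0.25 ± 0.13) and all of 217202_s_at above it (0.33 ± 0.15), and neither was called. Processed pseudogenes of GLUL exist, so its levels are uncertain too.

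ARG2, the arginase outside the cycle, stayed dim. Its brighter probe set, 203945_at, had signals of 144, 146 and 93.7 at 0 h, 201, 94.7 and 180 at 1 h, and 101, 239 and 104 at 4 h. They were 152, 168 and 216 at 8 h, 148, 119 and 159 at 12 h, and 36.4, 170 and 102 at 16 h. The 24 h arrays gave 114, 190 and 113, and at 48 h 114, 143 and 187. The groups overlapped 0 h at every time but 8 h, and at 48 h the log2 change of 0.19 had a 95% confidence interval from -0.60 to 0.97. The other probe set, 203946_s_at, was at 124, 59.7 and 34.2 at 0 h, 156, 149 and 176 at 1 h, 180, 125 and 262 at 4 h, and 156, 170 and 126 at 8 h. It was at 90.1, 99.7 and 39.2 at 48 h, overlapping 0 h again. It was called higher at 4 h (1.26 ± 0.37, adjusted p = 0.0094) and 8 h (1.01 ± 0.37, adjusted p = 0.033). Both calls were lost without 0 h replicate 3, its lowest array there (0.92 and 0.68), when only the 2 groups entered the fit (adjusted p = 0.054 and 0.11) as well as after adding 73.8 in place of 18 (0.86 and 0.66). The call at 4 h was also lost without 4 h replicate 3 (adjusted p = 0.072), and that at 8 h without 0 h replicate 2 (0.081) or 8 h replicates 1 or 2 (0.079 and 0.098). With no filter on low signals the call at 8 h was lost as well (limma, adjusted p = 0.056). Without 0 h replicate 1, its highest array there, 1 h (1.48), 12 h (1.07), 16 h (1.04) and 24 h (1.02) were called as well. Since the brighter probe set gave 0.11 ± 0.39 at 4 h and 0.44 ± 0.39 at 8 h, an early rise of ARG2 is uncertain.

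**Figure D3:**
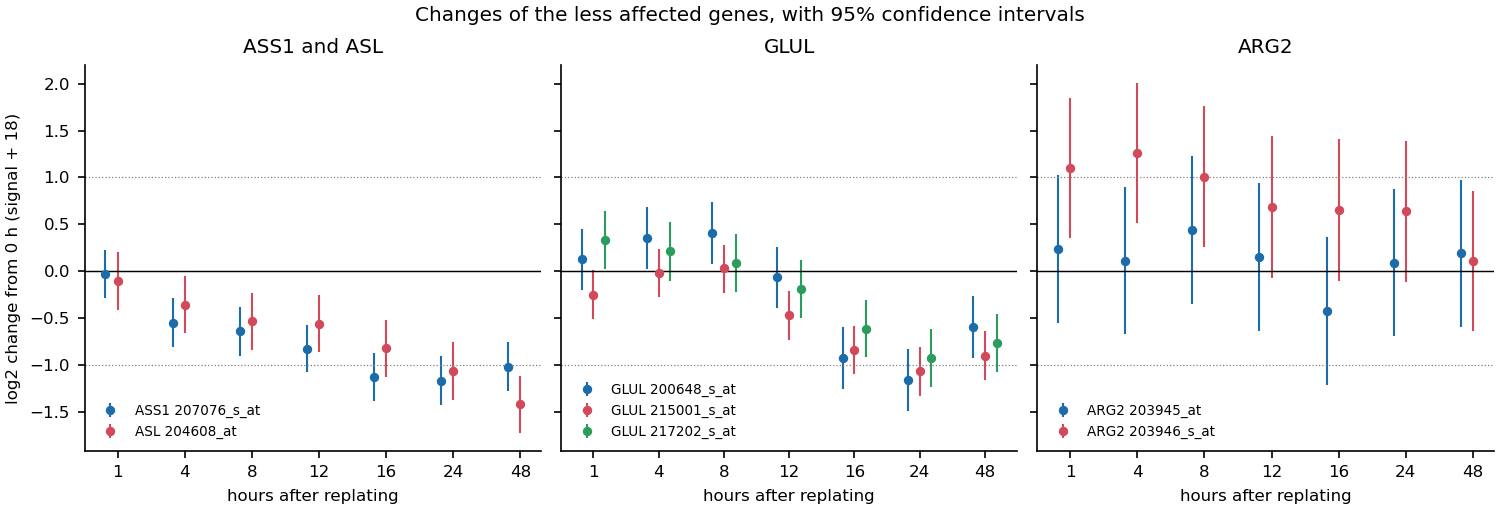
Log2 change from 0 h (signal + 18) at each later time for every probe set of ASS1, ASL, GLUL and ARG2, as points with 95% confidence intervals from the limma fit; dotted lines mark 2-fold. ASS1 and ASL sink stepwise to about -1 to -1.4, GLUL is near 0 to 8 h and lowest at 24 h, and the intervals of ARG2 are wide.

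The genes' reference promoter windows differ in base composition. RefSeq promoter sequences (GRCh38.p14) were found for all 7 genes, 11 windows in all since CPS1 has 3 annotated starts and ASS1 and GLUL 2 each. The 250 bases before the start of ARG1 and OTC, 2 of the 3 genes with a steep fall, and of ASL and ARG2, with a smaller fall and no call at 48 h, are shown to let their composition be compared. Each is written 5′ to 3′ on the gene's strand, with CG pairs and the motif TATAAA in capitals. The windows lie at chr6:131572976-131573225 (plus strand, ARG1), chrX:38352354-38352603 (plus strand, OTC, before a start inside the annotated gene), chr7:66075569-66075818 (plus strand, ASL) and chr14:67619670-67619919 (plus strand, ARG2).
ARG1: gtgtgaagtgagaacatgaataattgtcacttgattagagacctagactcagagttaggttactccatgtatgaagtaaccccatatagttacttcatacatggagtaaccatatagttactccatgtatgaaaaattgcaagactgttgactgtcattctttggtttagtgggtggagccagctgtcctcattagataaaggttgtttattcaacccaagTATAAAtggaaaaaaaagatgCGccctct
OTC: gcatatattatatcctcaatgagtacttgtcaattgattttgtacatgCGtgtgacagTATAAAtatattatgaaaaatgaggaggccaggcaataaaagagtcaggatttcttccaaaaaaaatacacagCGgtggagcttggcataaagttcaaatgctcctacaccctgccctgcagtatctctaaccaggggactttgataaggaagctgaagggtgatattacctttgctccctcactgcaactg
ASL: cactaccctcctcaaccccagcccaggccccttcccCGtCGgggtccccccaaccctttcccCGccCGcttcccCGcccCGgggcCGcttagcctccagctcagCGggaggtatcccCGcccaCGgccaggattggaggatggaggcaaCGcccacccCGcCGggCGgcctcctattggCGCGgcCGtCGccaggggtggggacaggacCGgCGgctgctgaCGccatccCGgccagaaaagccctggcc
ARG2: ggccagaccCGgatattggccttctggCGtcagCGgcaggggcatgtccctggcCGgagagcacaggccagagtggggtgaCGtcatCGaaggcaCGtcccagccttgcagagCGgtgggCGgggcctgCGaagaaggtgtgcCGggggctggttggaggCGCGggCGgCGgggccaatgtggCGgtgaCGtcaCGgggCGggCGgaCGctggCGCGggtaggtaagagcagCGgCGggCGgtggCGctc

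The ARG1 window held 1 CG pair and that of OTC 2, and the 3 CPS1 windows held 1, 3 and 3. ASL had 22, ARG2 27, the ASS1 windows 21 and 24, and the GLUL windows 22 and 25, against a median of 11 over 35116 windows. G and C made up 37.6% of the ARG1 window and 40.4% of that of OTC, but 74.0% and 72.4% of those of ASL and ARG2. Of the 8116 genes with a window and a tested probe set, 11.5% were called lower at 48 h and 9.97% higher. Of 578 genes with at most 3 CG pairs in every window, 24.9% were called lower and 5.71% higher. Of 3270 genes with at least 21, 9.24% were called lower and 10.5% higher. These limits on CG pairs are the members' own and were set after their values were seen, and the split over 7 genes is a description. The motif TATAAA, searched on both strands, began 29 bases before the start of ARG1 and 192 bases before that of OTC, and stood in no other member window but in 10.7% of all windows. The C/EBP motif TTGCNNAA and the HNF4 motif CAAAGTCCA, also searched on both strands, stood in none of the 11 windows (9.05% and 0.325% of all). The E-box CACGTG stood in 1 window each of CPS1 and ASS1 (6.34% of all). These matches describe letters in the window only.

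Among 114 other genes of nitrogen metabolism, its regulators and liver zonation in 9 lists, 92 had a probe set to themselves and 83 were tested. At 48 h 25 of these were called lower and 6 higher (with 1 probe set per gene, 11.6% and 9.76% of all genes). The median log2 change of the 83 was -0.50. Of the 6 measured genes that supply or connect the cycle's mitochondrial steps, 1 was called at 48 h: SLC25A13, the aspartate-glutamate carrier citrin, fell by 1.07 on the log2 scale (adjusted p = 2.1e-06). SLC25A15, which carries ornithine into the mitochondrion, had a change of -0.69 ± 0.18, under the 2-fold limit. SLC25A12, a related carrier, was called at 8 h (-1.71, adjusted p = 0.031) but was dim, at 88.5 ± 28.6 at 0 h.

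Of 10 measured enzymes of amino acid breakdown 5 were lower at 48 h, with none called higher. Of these 5, CTH and DAO release ammonia themselves, whereas GLDC, TDO2 and TAT do not. CTH, which splits cystathionine, went from 1870 ± 231 to 149 ± 69.6 (SD, n = 3; log2 change -3.60 ± 0.23). TDO2, which opens the tryptophan ring, was at -3.16 ± 0.25. TAT, tyrosine aminotransferase, was at -3.02 ± 0.40 by an _x_at probe set, which can cross-hybridize, and at -2.17 by its other one. GLDC, the glycine decarboxylase, and DAO, D-amino acid oxidase, were at -2.23 and -2.12 at 24 h. Of 13 glutamate, glutamine and aspartate genes 4 were lower at 48 h and none higher, with a list median of 0.10. GLUD1, glutamate dehydrogenase, fell from 3320 ± 277 to 766 ± 38.1 by an _x_at probe set (-2.09 ± 0.15) and by -1.76 by its other one. ALDH4A1 and PRODH, both of proline breakdown, were at -2.31 ± 0.21 and -1.29 ± 0.35. GOT1 (-1.29) and ASPA (-1.59) were lower at 16 h and were not called at 48 h.

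Of 15 measured transporters 6 were lower and 3 higher at 48 h. AQP9, a channel for glycerol and urea in hepatocytes, went from 4030 ± 657 to 141 ± 63 (-4.74 ± 0.32), and SLC38A3, the glutamine carrier of hepatocytes, from 294 ± 90.3 to 24 ± 15.4. AQP3, a glycerol channel, was called higher at 4 h (1.54) and lower at 48 h (-2.28), with the same signs by both other probe sets. SLC7A1, the carrier of arginine and other cationic amino acids, rose from 168 ± 44.1 to 952 ± 240 at 24 h (2.38) and was at 2.04 ± 0.23 at 48 h, with 1.12 and 0.26 by its other, dimmer probe sets. SLC38A4, another amino acid carrier, was at -3.19 at 12 h, where its signal of 28.2 ± 38.7 leaves the size poorly measured.

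Of 15 arginine, ornithine and polyamine genes 3 were higher at 48 h and 1 lower. Spermine synthase SMS (2.05 ± 0.18), AMD1, which makes the aminopropyl donor (1.45 ± 0.27; 1.67 by its other probe set), and spermidine synthase SRM (1.45 ± 0.18) rose. GATM, the first enzyme of creatine synthesis from arginine, was at -3.26 ± 0.22 (-2.14 by its other probe set). SMOX, spermine oxidase, rose at 4 h by 2.40, while its other probe set gave -0.97, so it is uncertain. ODC1, which turns the product of arginase into putrescine, had a change of 0.45 ± 0.14 and was not called. CAD, which makes carbamoyl phosphate for pyrimidines in the cytosol, was lower at 1 h (-2.15) and was at -0.22 ± 0.39 at 48 h. Its signals at 1 h were dim and variable (39.8 ± 43.9, against 202 ± 56.1 at 0 h), so that fall is poorly measured. UMPS, a later enzyme of the pyrimidine path, was higher at 4 h (1.35).

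**Figure D4:**
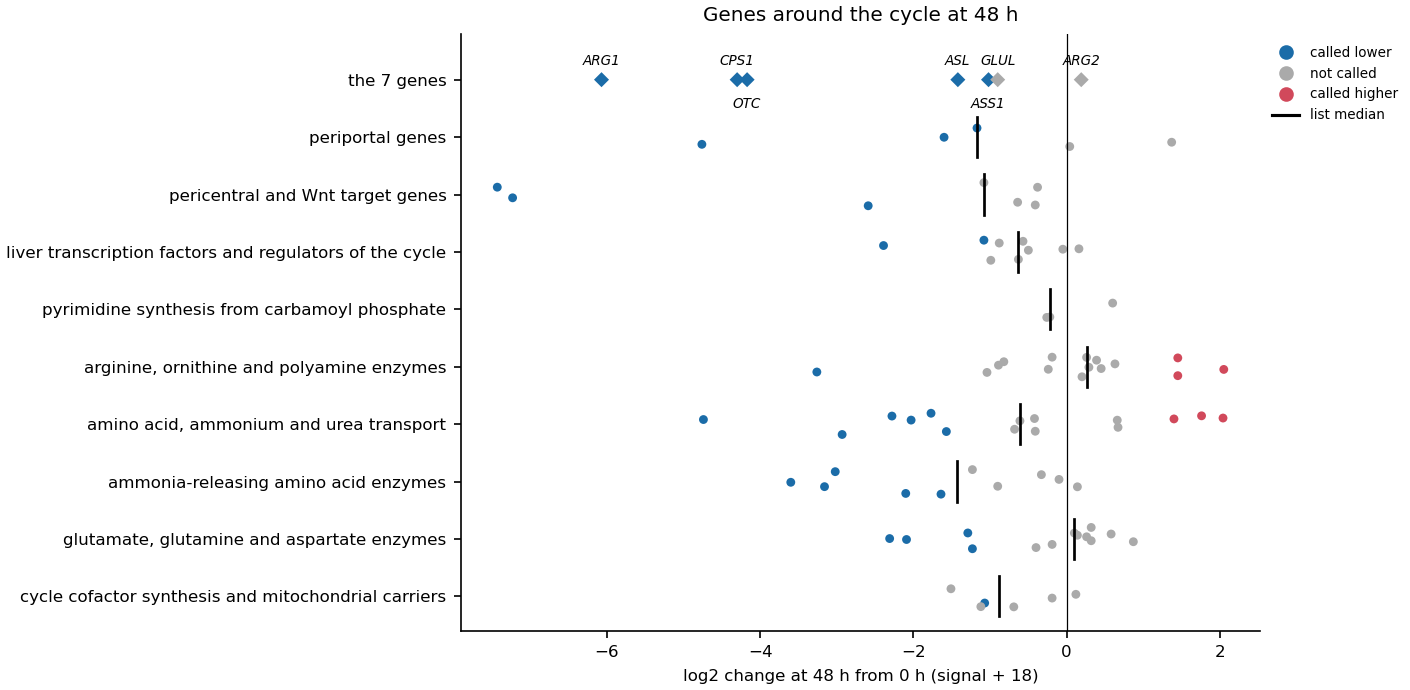
Log2 change at 48 h from 0 h (signal + 18) of each measured gene of the 9 lists (points, 1 probe set per gene; vertical bars are list medians) and of the 7 genes by their brightest probe set (diamonds). ARG1 lies at -6.07, CPS1 and OTC near -4, and higher calls occur only among transporters and among arginine, ornithine and polyamine enzymes, 3 in each.

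CEBPA, a transcription factor that drives several urea cycle genes in liver, had signals of 625 ± 35 at the start (SD, n = 3), 410 ± 78.1 after 1 h and 60.3 ± 27.9 after 4 h. CEBPA was called lower from 4 h (-3.11 ± 0.36) to 48 h (-2.39 ± 0.36). PPARGC1A, a coactivator of fasting genes, and PPARA, a receptor of fasting lipid metabolism, were lower at 8 h (-2.51 and -1.96), and neither was called at 48 h. Their signals at 8 h were dim, at 23.9 ± 15 and 39.7 ± 28.2, so the sizes of these falls are poorly measured. SIRT3, a mitochondrial deacetylase, was at -1.08 ± 0.25 at 48 h, with -1.34 and -0.62 by its other probe sets. In all 2 of 9 measured regulators were lower and none higher. Genes of both liver zones were lower at 48 h: 3 of 7 measured pericentral genes and Wnt targets and 3 of 5 periportal genes, with none higher in either. CYP2E1, a pericentral oxidase, went from 9350 ± 604 to 45.5 ± 42.5, so dim and variable at 48 h that its change of -7.43 ± 0.25 is poorly measured. CYP3A4 and CYP1A2, both read by _x_at probe sets, were at -7.23 and -2.59. Other CYP3A4 probe sets gave -5.87, -8.83 and, where dim already at 0 h (45.8), -1.28, which was not called. The Wnt feedback gene RNF43 was lower at 4 h (-2.56) and TBX3, another Wnt target, higher (1.38). RNF43 was dim at 4 h, at 17.4 ± 3, so the size of its fall is poorly measured. PCK1, the periportal enzyme of gluconeogenesis, was higher at 1 h (1.95) and at -4.76 ± 0.43 at 48 h. Its signal at 48 h was 10.9 ± 8.51, so the size of its fall is poorly measured. APOA4, an apolipoprotein, was at -1.60 and CDH1, E-cadherin, at -1.17 (-0.77 and not called by its other probe set). PIGR, the receptor that carries IgA, was called higher at 8 h alone (1.78). It was dim and variable, at 20.9 ± 12.3 at 0 h and 129 ± 82.3 at 8 h, so this rise is uncertain.

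Over the 24 arrays, which share the 8 times and so any common trend, the log2 signals of CPS1, OTC, ASS1, ASL and ARG1 correlated at Pearson r from 0.75 (OTC with ASS1) to 0.92 (CPS1 with ASS1 and with ARG1). ARG2 correlated with the other genes at -0.03 to 0.17, and GLUL with the 5 cycle enzymes at 0.74 to 0.89. Out of 9966 genes, those with the course most like CPS1 were IQGAP2 (r = 0.982), ADH6 (0.979) and PCK2 (0.978), and most like ARG1 were ABAT (0.985), POR (0.981) and ADH1B (0.98). For OTC they were KNG1 (0.973), SLC67A1 (0.972) and CFHR2 (0.967, an _x_at probe set). For ASS1 they were ECHS1 (0.964), ATP7B (0.963) and CYP2J2 (0.959). For ASL they were FAH (0.971), CFB (0.961) and GATM (0.958). The values for GLUL were lower, with AQP6 at 0.91, SULT2A1 at 0.892 and SPAG9 at 0.888. ABAT, a GABA transaminase and so another enzyme of nitrogen metabolism, went from 7230 ± 401 at 0 h to 2530 ± 180 at 12 h and 401 ± 67.4 at 48 h. These correlations describe shared time courses on the same arrays.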

How the data were processed

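The members and gene lists were chosen with earlier results of these data known. RNA of 24 HepaRG samples, 3 at each of 8 times, was read on a 1-colour Affymetrix 3' expression array of 22283 probe sets, 68 of them controls. The authors deposited an intensity for each probe set on a linear scale, made with MAS5 per the submitters' processing notes; its version is not given in the sources used here. Their trimmed means, 491.4 to 495.1, show scaling to a common level. Arrays of 1 time correlated at 0.929 to 0.966, so none were duplicates.

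Signals entered as log2(signal + 18), 18 being the 20th percentile, with no further scaling. Testing needed 3 or more arrays above their own 40th percentile. Gene symbols are those of the platform table given (1 symbol for 19065 probe sets, several for 1043, none for 2107). Fits used limma 3.58.1 in R 4.3.3 (eBayes with trend, 16 residual degrees of freedom) over all arrays and 17122 probe sets, so every adjusted p is over probe sets; genes of the lists were read by their brightest tested probe set. The fit was tested on simulated data. Named genes were all members, up to 3 called at 48 h and 2 called at another time per list, some always named, and 3 most correlated genes per changed member. Figures were drawn with matplotlib 3.10.9. The number of arrays limits the precision.

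Alternatives were no pseudocount, a larger one (73.8), quantile normalization, median centring, no filter, a stricter filter, 1 probe set per gene, the mean of its probe sets, the replicate block, only the groups compared, no trend, and leaving out each array.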

Additional observations from a re-analysis of the deposited data

How the results depend on the processing

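Calls of the steep falls of CPS1, OTC and ARG1 from 12 h on were kept in every alternative run. The count of member probe sets changed at some time, 9 as reported, was 6 with median centring. It was 8 with the larger pseudocount, 8 with no filter and 10 with quantile normalization. Of the 11 member probe sets, 2 were called at 4 h against 0 h. That count was 1 with the larger pseudocount, the stricter filter, 1 probe set per gene, averaged probe sets, and only the groups compared. At 8 h 4 were called, and 2 with the larger pseudocount, 1 probe set per gene and averaged probe sets. The settings with 1 value per gene hold 7 values in place of 11. At 24 h 8 were called, and 4 with median centring. Over the 6 steps 5 calls were made, and 3 with the larger pseudocount and 3 without the mean-variance trend. Leaving out any 1 array gave 8 to 9 changed at some time (9 with all arrays), 0 to 1 called at 1 h, 1 to 2 at 4 h, 3 to 5 at 8 h, 4 to 5 at 12 h, 5 to 6 at 16 h, 7 to 9 at 24 h and 5 to 6 at 48 h. It gave 3 to 6 step calls, the lowest without 8 h replicate 3, and 28 to 33 other pathway genes called at 48 h (31 with all arrays). The 1 call at 1 h was ARG2 203946_s_at without 0 h replicate 1 (1.48).

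Of single probe set values against 0 h, 16 of 777 under other settings and 23 of 1848 with an array left out changed their call, and no called value changed sign. With the replicate number as a block all member counts were as reported (9, 0, 2, 4, 4, 5, 8, 6 and 5 step calls) and 30 other pathway genes were called at 48 h. Arrays of the same number at different times deviated together at a correlation of -0.05 to 0.07, and those of different numbers at -0.06 to 0.04. These ranges gave no sign of pairing but cannot show that the replicates were unpaired. With median centring, an alternative for the crossing times added after the data were seen, the mean log2 signal lay 1 below 0 h at 4.95 h for CPS1 217564_s_at (4.41 h as deposited), 8.46 h for OTC, 8.61 h for ARG1 and 35.4 h for ASL, and did not reach it for ASS1 or GLUL. The causes of these shifts were not tested. Among the members, signal over background limits CPS1, OTC and ARG1 from 24 h on and ARG2 throughout. It also limits the sizes given for other genes where they were dim.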
